A study of Homo sapiens with 6 samples.

Results

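AP-1 is a transcription factor built from a pair of basic leucine zipper proteins of the FOS and JUN families. Its transcripts were followed in human motor neurons under simulated microgravity. The 7 genes are FOS (ENSG00000170345), FOSB (ENSG00000125740), FOSL1 (ENSG00000175592), FOSL2 (ENSG00000075426), JUN (ENSG00000177606), JUNB (ENSG00000171223) and JUND (ENSG00000130522), out of 57820 genes in the count table. They were selected on their symbols, with the difference of FOS and JUN between SMG and NG already known, so the values of the members between the groups are descriptions and carry no test. The cells were motor neurons made from H9, a human embryonic stem cell line, with the genotype given as WT. The SMG group was 3 libraries of neurons kept on a 2D clinostat, which turns the culture slowly to simulate microgravity, and the NG group was 3 libraries kept at normal gravity. Both groups came from neural progenitors given retinoic acid (RA) and the hedgehog pathway agonist SAG. A single line was used, and how long the neurons spent on the clinostat is unknown here. Nothing in the labels marks the libraries as separate cultures, so the spread between them may be technical.

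FOS, FOSB, FOSL1 and FOSL2 pair poorly with themselves, and bind DNA mainly as partners of a JUN protein, while JUN, JUNB and JUND can also pair with one another. The dimers bind the sequence TGACTCA and, with less preference, the cyclic AMP response element TGACGTCA. In neurons FOS is the textbook immediate early gene: calcium entry and growth factor signals act through CREB, SRF and its ELK cofactors, and ERK to switch it on within minutes, and its AU-rich mRNA is then rapidly removed. JUN has a different role in neurons, where the kinase DLK and the JNK kinases phosphorylate it after axon damage or loss of trophic support, and it can bind and drive its own promoter. JUND is present in many resting cells.

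The promoters are shown for the FOS-family genes with the lowest levels in SMG relative to NG and for the most abundant JUN-family genes, because the elements named above can be read in them. RefSeq promoter windows (GRCh38.p14) were matched for 6 of the 7 members, FOSL1 being the other, and the 250 bases before the annotated start are given 5′ to 3′ on the strand of the gene. The windows are chr14:75278578-75278827 on the plus strand for FOS, chr19:45467746-45467995 on the plus strand for FOSB, chr1:58784048-58784297 on the minus strand for JUN and chr19:18281623-18281872 on the minus strand for JUND. Capitals mark the core TGACG of the cyclic AMP response element, its palindrome TGACGTCA, the site TGACATCA that is known from the JUN promoter, the AP-1 site TGACTCA and the TATA box TATAAA, on either strand.
FOS: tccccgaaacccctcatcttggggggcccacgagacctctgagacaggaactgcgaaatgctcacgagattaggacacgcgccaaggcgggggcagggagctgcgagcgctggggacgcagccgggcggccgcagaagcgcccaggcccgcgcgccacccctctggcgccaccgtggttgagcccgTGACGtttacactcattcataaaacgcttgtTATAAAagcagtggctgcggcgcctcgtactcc
FOSB: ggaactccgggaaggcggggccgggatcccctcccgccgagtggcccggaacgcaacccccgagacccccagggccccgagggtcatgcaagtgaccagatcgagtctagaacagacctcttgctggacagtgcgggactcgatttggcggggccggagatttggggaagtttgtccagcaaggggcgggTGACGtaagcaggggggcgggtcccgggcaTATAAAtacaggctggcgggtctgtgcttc
JUN: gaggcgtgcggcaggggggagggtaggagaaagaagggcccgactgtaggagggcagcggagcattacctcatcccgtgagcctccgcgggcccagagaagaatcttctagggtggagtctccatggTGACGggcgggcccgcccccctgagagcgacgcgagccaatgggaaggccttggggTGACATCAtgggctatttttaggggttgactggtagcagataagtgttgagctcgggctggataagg
JUND: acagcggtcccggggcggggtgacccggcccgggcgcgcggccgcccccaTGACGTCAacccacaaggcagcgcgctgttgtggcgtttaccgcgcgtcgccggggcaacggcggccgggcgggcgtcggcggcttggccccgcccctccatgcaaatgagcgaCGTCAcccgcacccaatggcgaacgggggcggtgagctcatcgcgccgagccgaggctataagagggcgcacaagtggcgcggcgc

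Positions are counted back from the start, with -1 as the base before it. TGACG lay at -64 to -60 in FOS and at -60 to -56 in FOSB, each followed by TATAAA, at -33 to -28 in FOS and at -30 to -25 in FOSB. The core TGACG on either strand was in all 6 windows, and 21.2% of 35116 RefSeq windows of the same length hold it. In JUNB it lay at -137 to -133, with TATAAA at -31 to -26, and in FOSL2 it lay at -201 to -197 and at -66 to -62. TATAAA was in 10.7% of all windows. The JUN window held TGACATCA at -67 to -60, which 2.38% of all windows hold, and TGACG at -123 to -119. The JUND window held the full palindrome TGACGTCA at -200 to -193, which contains TGACG on both strands and is in 1.65% of all windows, and a second core at -86 to -82. TGACTCA was in 4.203% of all windows and in none of the 6, nor did these 6 stretches hold the CArG box by which SRF binds, which was in 1.16% of all windows. These matches describe letters in the windows and say nothing on binding in the cells. Sites more than 250 bases before the start, CArG boxes among them, were not searched.

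The members also differ as transcripts. JUN, JUNB and JUND have a single exon, as do 2.52% of the 13618 tested genes with a protein-coding GENCODE transcript, whereas the FOS-family genes have 4 exons. The longest JUND transcript is 69.7% G and C, against a median of 48.6% over those genes, and 0.441% of them reach the JUND value. JUNB has 64.9% GC, JUN 56.7%, FOS 52.6%, FOSB 57.7%, FOSL1 60.0% and FOSL2 53.3%. The letters ATTTA, the core of the AU-rich elements that mark short-lived mRNAs, occur 4 times in the FOS transcript of 2158 bases and 9 times in the FOSL2 transcript of 6708 bases, with a median of 3 over all those genes.

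The libraries held 20986483, 22267155 and 22685870 counted reads in SMG and 21386253, 16329907 and 16600001 in NG. Levels are CPM, the counts of a gene relative to the TMM-scaled total of its library, and log2 fold changes are SMG over NG. edgeR's quasi-likelihood test with Benjamini-Hochberg adjustment called 6376 of 17803 tested genes at an adjusted p under 0.05, which is 35.8%, with 17.3% higher and 18.5% lower in SMG. The groups did not overlap in 46.3% of the tested genes. The median log2 fold change of all tested genes was -0.00018. GC content moved with the groups: the mean log2 deviation of the 1334 genes with a GC content of 61.3% or more, minus that of the 1397 genes with 38.3% or less, was 0.0974, 0.175 and 0.157 in the SMG libraries and -0.117, -0.0323 and -0.280 in the NG libraries. NG replicate 3 lay furthest from the rest on this measure. Values with a length and GC trend removed are given for some genes. A gene for which none is given may also have had another value in that fit.

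FOS was the member furthest from its NG level, and was lower in every SMG library. It had 34, 37 and 40 reads in the SMG libraries and 297, 220 and 207 in the NG libraries. In CPM these were 1.60, 1.66 and 1.75 in SMG and 14.0, 13.5 and 12.6 in NG. Every SMG library lay far below every NG library, and the libraries within each group lay close together. The mean was 1.67 ± 0.0740 CPM in SMG and 13.4 ± 0.706 CPM in NG (SD, n = 3 each), a log2 fold change of -2.998 ± 0.12 (SE), or 7.99-fold lower in SMG. Of the 13837 tested genes with a mean of at least 2 CPM, 1 had a lower log2 fold change, the transcriptional repressor BHLHE40 at -4.18, which is named here after its value was seen. In bulk libraries such as these, fewer cells that hold a transcript and less of it per cell cannot be told apart.

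FOSB, the close relative of FOS that neurons also switch on with activity, was scarce. It had 5, 14 and 14 reads in SMG and 23, 18 and 16 in NG, or 0.236, 0.629 and 0.613 CPM in SMG and 1.08, 1.11 and 0.975 CPM in NG. The groups did not overlap, but SMG replicate 1 lay well below the other SMG libraries. The log2 fold change was -1.08 ± 0.32 with all libraries and -0.76 without SMG replicate 1. Summed over libraries, FOSB had 33 reads in SMG, which corresponds to 0.498 CPM (95% exact Poisson interval 0.343 to 0.699). Its 57 reads in NG correspond to 1.06 CPM (0.802 to 1.37). The intervals are scaled for depth and cover counting error only.

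FOSL1 (FRA1), a FOS-family member best known from growing and invading cells, had 5, 4 and 2 reads in SMG and 7, 4 and 3 in NG. The groups overlapped, and the gene was too low to be tested. Its summed count of 11 in SMG corresponds to 0.166 CPM (95% exact Poisson interval 0.0828 to 0.297) and its 14 in NG to 0.260 CPM (0.142 to 0.436), so a difference was not detectable at this depth. FOSL2 (FRA2) had 3.12, 2.60 and 2.41 CPM in SMG and 3.49, 3.33 and 2.80 CPM in NG. These ranges overlapped, and the log2 fold change was -0.25 ± 0.16.

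**Figure D1:**
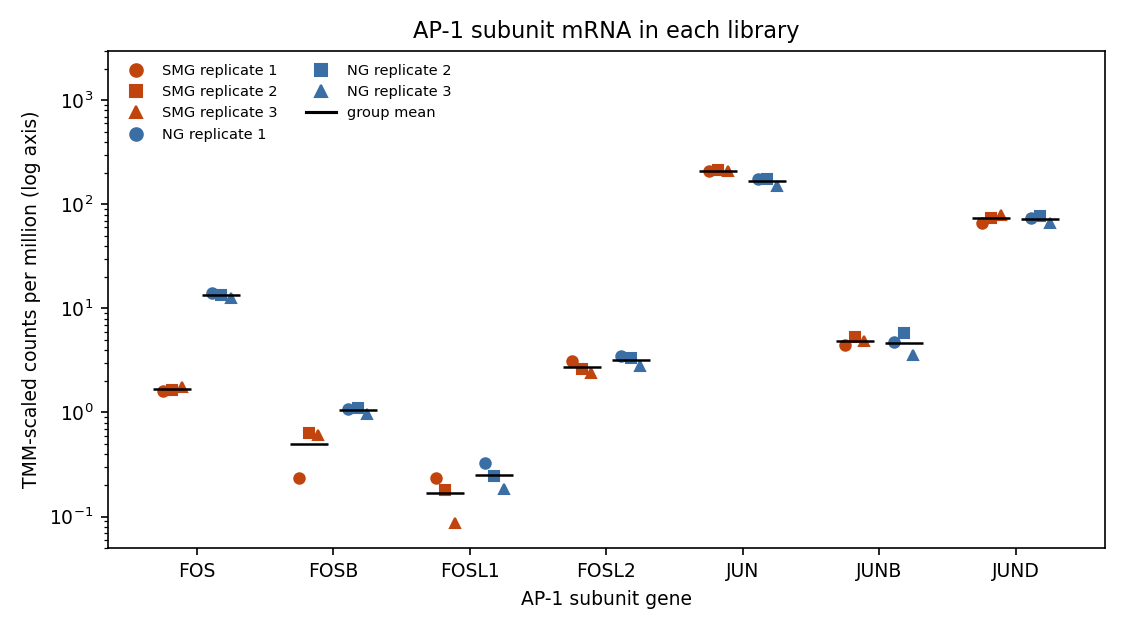
Level of each AP-1 gene in every library, in CPM on a log axis, with SMG left of NG for each gene; each point is a library and each line a group mean. FOS sits at 1.60 to 1.75 CPM in SMG and 12.6 to 14.0 CPM in NG, JUN is higher in every SMG library, and the JUNB and JUND groups overlap.

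JUN, the main transactivating partner of FOS, went the other way. It had 4435, 4743 and 4746 reads in SMG and 3750, 2881 and 2442 in NG, or 209, 213 and 208 CPM in SMG and 177, 177 and 149 CPM in NG. The SMG libraries lay close together and above all NG libraries, while NG replicate 3 stood below the other NG libraries. The mean was 210 ± 2.64 CPM in SMG and 168 ± 16.3 CPM in NG (SD, n = 3 each), a log2 fold change of 0.32 ± 0.05, or 1.25-fold higher in SMG. It was 0.25 without NG replicate 3 and 0.24 with the length and GC trend removed, and 12.3% of all tested genes had a larger log2 fold change than JUN.

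JUNB, which often holds JUN in check and is itself an immediate early gene, had 4.44, 5.34 and 4.86 CPM in SMG and 4.71, 5.85 and 3.54 CPM in NG. The SMG values lay inside the range of the NG values. Its log2 fold change was 0.06 ± 0.14, and -0.09 without NG replicate 3. Of the JUNB exon bases, 14.2% overlap exons of HOOK2 on the opposite strand, and whether reads were counted by strand is unknown here. JUND, the member with the steadiest expression in many tissues, had 65.8, 74.7 and 79.5 CPM in SMG and 74.6, 77.2 and 66.3 CPM in NG. The groups overlapped over most of their ranges, with a log2 fold change of 0.01 ± 0.07. With the length and GC trend removed it was -0.17, so its direction depends on that setting. All 7 members, those of the FOS family included, were lowest in NG replicate 3 among the NG libraries. That library also had the lowest reading of GC-rich genes, and whether GC content had a part in these low values was not tested.

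Among the 6 tested members, 3 were called by edgeR, with JUN higher and FOS and FOSB lower, and the groups did not overlap in the same 3. The shares of all tested genes were 35.8% called and 46.3% not overlapping. Since the members were chosen with this contrast known, nothing is read from these counts.

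**Figure D2:**
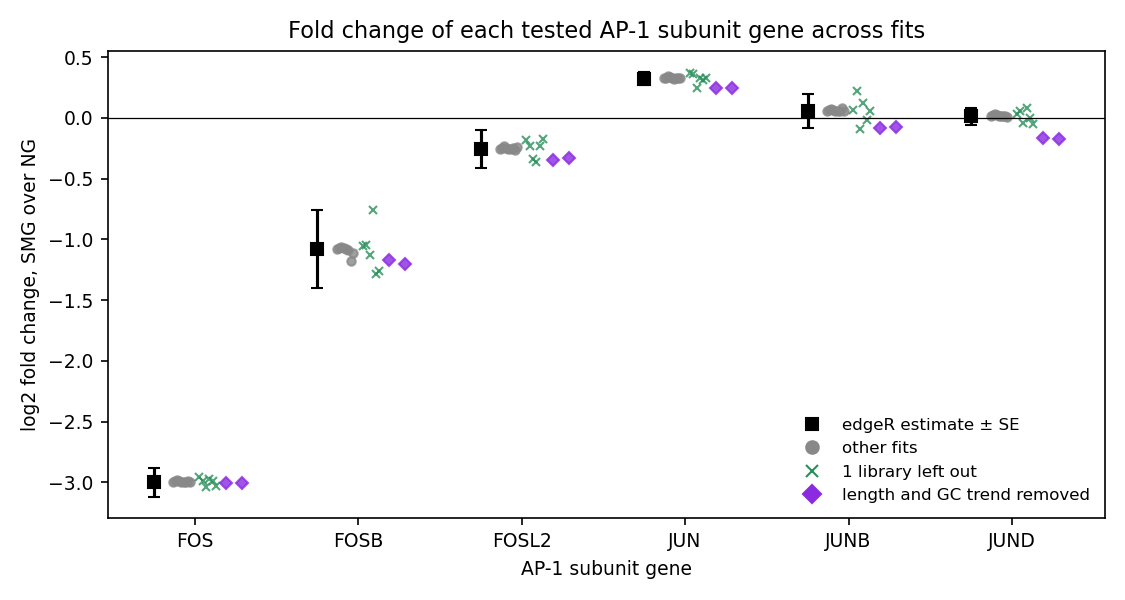
Log2 fold change (SMG over NG) of each tested AP-1 gene under every processing alternative; squares with bars are the reported values ± SE, and other symbols are other fits, fits without 1 library and fits with the length and GC trend removed. FOS lies between -3.04 and -2.96 and JUN lies between 0.24 and 0.37, while JUNB and JUND fall on both sides of 0.

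To compare genes, levels were divided by exon length and read as CPM per kilobase. JUN and JUND made up nearly all of the AP-1 transcripts in both groups. JUN had 59.1, 60.2 and 58.7 CPM per kilobase in SMG and 49.9, 50.1 and 42.0 in NG. JUND had 35.3, 40.1 and 42.7 in SMG and 40.0, 41.4 and 35.6 in NG. JUN was above JUND in every library, by ratios of 1.67, 1.501 and 1.38 in SMG and 1.25, 1.21 and 1.18 in NG. The order below them was JUNB, FOS, FOSL2 and then FOSL1 and FOSB in SMG, and FOS, JUNB, FOSL2, FOSB and FOSL1 in NG. On this scale FOS had 0.517 ± 0.0229 CPM per kilobase in SMG and 4.14 ± 0.218 in NG, and JUNB averaged 2.68 in SMG and 2.58 in NG. FOSL2 averaged 0.379 ± 0.0510 in SMG and 0.448 ± 0.04999 in NG, so it lay below FOS in every library, narrowly so in SMG. FOSB and FOSL1, at 0.0887 ± 0.0400 and 0.0889 ± 0.0397 in SMG, did not differ beyond their spread. FOSB was above FOSL1 in every NG library, at means of 0.190 and 0.134. That order rests on 7, 4 and 3 reads of FOSL1 and was not tested against counting error.

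As a share of all AP-1 transcripts per kilobase, FOS made up 0.504% ± 0.0114 in SMG and 4.42% ± 0.219 in NG (SD, n = 3 each). JUN made up 58.0% ± 2.24 in SMG and 50.4% ± 0.576 in NG, and JUND 38.4% ± 2.27 in SMG and 41.6% ± 0.664 in NG. The whole FOS family was 1.05% ± 0.0685 of the transcripts in SMG and 5.24% ± 0.222 in NG. The summed level of all 7 members was 102 ± 3.86 CPM per kilobase in SMG and 93.9 ± 8.51 in NG, a difference close to the spread of the NG libraries. Taken per kilobase of exon, there were 119, 117 and 109 JUN transcripts for each FOS transcript in the SMG libraries and 11.5, 12.0 and 10.8 in the NG libraries. These transcript ratios depend on the length used, which for FOS was 3238 exon bases, beside 2158 in its longest protein-coding transcript. They say nothing on the proteins or their dimers.

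**Figure D3:**
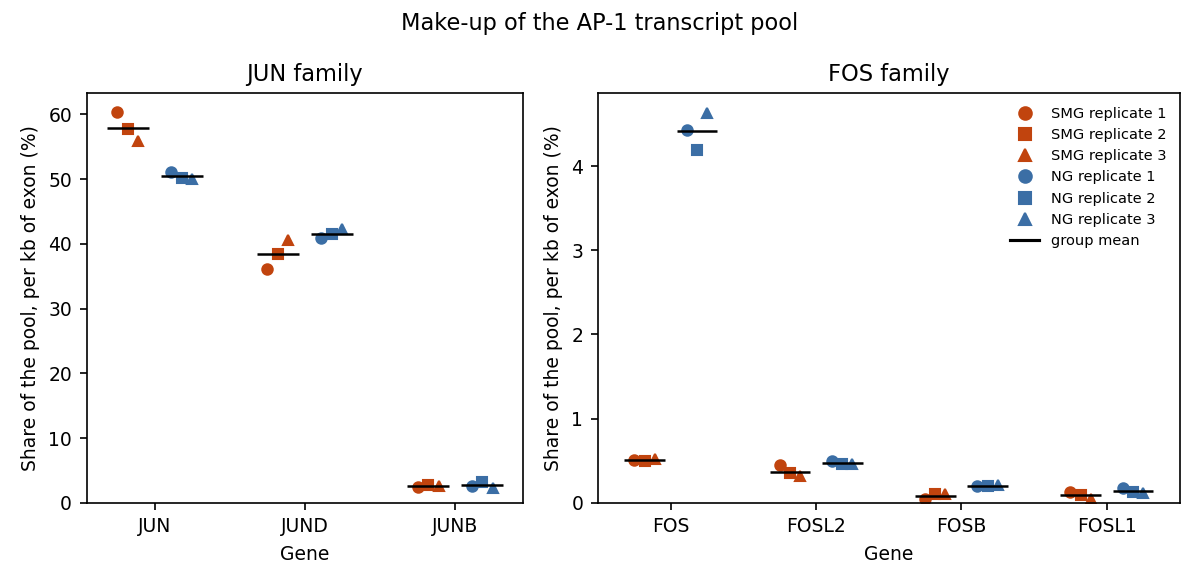
Share of each AP-1 gene in the summed CPM per kilobase of exon of the family, in percent, with SMG left of NG for each gene; points are libraries, lines are group means, and the JUN and FOS families have panels with different axes. JUN and JUND hold most of the pool in both groups, and FOS makes up 0.504% on average in SMG and 4.42% in NG.

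Other basic leucine zipper proteins that can take the place of FOS beside JUN were counted next. Of 8 such partners 5 were tested, and 0 were higher and 3 were lower in SMG, with a median log2 fold change of -0.17. That was 60% called, beside 35.8% of all tested genes, 17.3% higher and 18.5% lower. The same shares of all tested genes stand beside the counts of every list below. ATF4, the effector of the integrated stress response, averaged 194 ± 7.49 CPM in SMG and 231 ± 9.03 CPM in NG (log2 fold change -0.25 ± 0.04, edgeR adjusted p = 5.08e-06). ATF3, a stress-induced partner of JUN after nerve injury, averaged 11.4 CPM in SMG and 13.7 CPM in NG (-0.27 ± 0.09, edgeR adjusted p = 0.0173). ATF3 and ATF2 lost their calls when the length and GC trend was removed, which left 1 lower. Of the 7 MAF factors, basic leucine zipper proteins of a related family, 2 were higher, MAF at a log2 fold change of 0.25 and MAFG at 0.15, and 0 lower. That was 28.6% called. The higher count dropped to 0 without SMG replicate 2 or SMG replicate 3. With the length and GC trend removed MAFG had 0.03 (edgeR adjusted p = 0.706), MAFF was lower at -0.41, and the counts were 1 higher and 1 lower.

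The factors through which signals reach the FOS promoter were counted as SRF and CREB regulators, and of 14 genes 7 were higher and 2 lower in SMG, with a median log2 fold change of 0.10. That was 64.3% called, beside 35.8% of all tested genes. CREBBP, the CREB-binding acetyltransferase, had 257, 255 and 254 CPM in SMG and 195, 190 and 174 CPM in NG. Its groups lay well apart (log2 fold change 0.45 ± 0.04, edgeR adjusted p = 2.10e-10). CRTC1, a calcium-sensitive CREB coactivator, rose by 0.40 on the log2 scale, MRTFA, an actin-regulated SRF coactivator, by 0.29, and EP300, the relative of CREBBP, by 0.27. SRF itself averaged 61.5 ± 1.19 CPM in SMG and 52.7 ± 2.97 CPM in NG (0.23 ± 0.05, edgeR adjusted p = 4.92e-04), but with the length and GC trend removed its log2 fold change was 0.08 and its edgeR adjusted p 0.23. ELK4, an SRF cofactor, was lower at -0.27 and CREM, a CREB relative, at -0.20. CREB1 had a log2 fold change of 0.03 (edgeR adjusted p = 0.557) and the SRF cofactor ELK1 0.08 (edgeR adjusted p = 0.409), and neither passed. With the length and GC trend removed CREB1 passed at 0.08 (edgeR adjusted p = 0.0372), CREM did not, and the list had 5 higher and 1 lower. In that fit CREBBP had 0.31, CRTC1 0.21, MRTFA 0.14 and EP300 0.18.

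The ERK cascade, through which growth factors reach the ELK cofactors, held 12 tested genes, of which 3 were higher and 2 lower with a median log2 fold change of 0.01. That was 41.7% called, beside 35.8% of all tested genes. RPS6KA2, a ribosomal S6 kinase downstream of ERK, was higher at 0.29 and the kinase MAP2K2 at 0.23, while MAP2K1 was lower at -0.13. MAPK3 (ERK1) had -0.03 at an edgeR adjusted p of 0.663 and did not pass, but had -0.14 at an edgeR adjusted p of 0.0088 with the length and GC trend removed. That fit called 4 genes of the cascade higher and 3 lower, while the count of lower genes dropped to 0 under several other alternatives. Among 16 MAP kinase phosphatases and ERK feedback inhibitors, many of which are themselves ERK targets, 4 were higher and 6 lower with a median of -0.06. That was 62.5% called. SPRY1, a feedback inhibitor of receptor kinase signals, had 4.30, 3.91 and 4.60 CPM in SMG and 6.69, 6.53 and 6.52 CPM in NG. All SMG values lay below all NG values (-0.63 ± 0.12, edgeR adjusted p = 9.56e-05). SPRY2 was lower at -0.39 and DUSP6, the phosphatase for ERK, at -0.29, though 40.5% of the DUSP6 exon bases overlap an antisense gene. DUSP8 and SPRY4 were higher at 0.32 each, SPRY4 losing its call with the length and GC trend removed, and DUSP1, an immediate early phosphatase, had -0.09 (edgeR adjusted p = 0.188). DUSP8 had 0.14 with that trend removed and kept its call.

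The JNK cascade phosphorylates JUN, and 8 of its 17 tested genes were higher and 2 lower in SMG, with a median log2 fold change of 0.06. Of these genes 58.8% were called, beside 35.8% of all tested genes. The 4 with the largest log2 fold changes were the scaffolds that carry JNK along axons and the kinase DLK. MAPK8IP2 (JIP2) had 150, 157 and 156 CPM in SMG and 113, 117 and 104 CPM in NG. The groups were clearly separate (0.47 ± 0.04, edgeR adjusted p = 2.64e-10). MAPK8IP1 rose by 0.35 and MAPK8IP3 by 0.34, and MAP3K12, which encodes DLK, averaged 62.5 ± 1.17 CPM in SMG and 49.8 ± 1.36 CPM in NG (0.33 ± 0.05, edgeR adjusted p = 2.46e-06). Of the MAP3K12 exon bases, 18.7% overlap exons of PCBP2 on the opposite strand, and 11.7% of those of MAPK8IP1 overlap an antisense gene. MAP3K1 and MAP2K4, kinases upstream of JNK, were lower at -0.22 and -0.14. The JNK genes themselves did not pass, with log2 fold changes of -0.04 for MAPK8, 0.06 for MAPK9 and -0.04 for MAPK10. With the length and GC trend removed MAPK9 passed at 0.10 (edgeR adjusted p = 0.0363), MAP2K4 lost its call, and 5 genes of the cascade were higher and 1 lower, the 4 genes named here as higher among those called. In that fit MAPK8IP2 had 0.28, MAPK8IP1 0.20, MAPK8IP3 0.14 and MAP3K12 0.25.

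Other immediate early genes were read beside FOS. Of 22 on the list 15 were tested, 1 was higher and 5 were lower in SMG, with a median log2 fold change of -0.18. The 40% called was near the 35.8% of all tested genes. EGR1, the zinc finger factor switched on by the same SRF and ELK route, had 3.16, 3.23 and 3.11 CPM in SMG and 12.0, 10.3 and 11.8 CPM in NG. The groups were far apart (-1.85 ± 0.11, 3.60-fold lower in SMG, edgeR adjusted p = 1.71e-13). KLF10, a TGF-beta-induced zinc finger factor, averaged 50.01 ± 1.26 CPM in SMG and 82.5 ± 4.16 CPM in NG (-0.72 ± 0.05, edgeR adjusted p = 7.49e-13). CCN1, a secreted matrix protein, fell by 0.37 on the log2 scale, IER5 by 0.31 and the antiproliferative gene BTG2 by 0.25, while CCN2, the relative of CCN1, was higher at 0.39. The count of higher genes dropped to 0 with DESeq2 or without NG replicate 3. The activity-regulated genes NR4A1 and ARC did not pass, at 0.13 (edgeR adjusted p = 0.224) and -0.25 (edgeR adjusted p = 0.295), nor did IER2 at -0.03 (edgeR adjusted p = 0.795), and NPAS4 was too low to be tested.

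Of 24 textbook AP-1 targets 14 were tested, 0 were higher and 5 were lower in SMG, with a median log2 fold change of -0.17. The 35.7% called was close to the 35.8% of all tested genes, so the number called sets the targets apart from no other genes. On the list 4 genes, MMP13, IL6, AREG and EREG, had no read in any library. GJA1, the gap junction protein connexin 43, had 24.0, 27.1 and 23.1 CPM in SMG and 38.7, 37.4 and 33.3 CPM in NG. No SMG library reached the NG range (-0.56 ± 0.07, edgeR adjusted p = 2.08e-07). TIMP1, an inhibitor of matrix metalloproteinases, fell by 0.37 on the log2 scale and CCND1, which encodes cyclin D1, by 0.16. LIF, a cytokine near the detection limit, was the fifth lower gene, with 1.36 CPM in SMG and 2.31 CPM in NG. VIM, the intermediate filament vimentin, fell by 0.09, and its call was lost with the length and GC trend removed. GJA1 is also an astrocyte marker: both tested markers of the 6 on that list, GJA1 and SLC1A3, were lower, SLC1A3 losing its call with the length and GC trend removed (-0.10, edgeR adjusted p = 0.09), the summed level of the list ran from 61.7 to 67.6 CPM in SMG and from 78.8 to 83.9 CPM in NG, and their part in the target count was not tested. The markers GFAP, AQP4, ALDH1L1 and S100B were too low to be tested.

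Of 22 genes tied to JUN and FOS in injured or active neurons 16 were tested, with 3 higher, 4 lower and a median log2 fold change of -0.12. That was 43.75% called, beside 35.8% of all tested genes. ECEL1, a nerve injury-induced peptidase, was higher at 0.29, the pro-apoptotic JUN target HRK at 0.27 and SOX11, a factor of axon growth, at 0.22. SCG2, a precursor of secreted neuropeptides, was lower at -0.27 and STMN2, a tubulin-binding protein of growing axons, at -0.12. ATF3 and the low neuropeptide gene NTS were also lower, while GAP43, a growth cone protein, had 0.06 (edgeR adjusted p = 0.197). The genes moved in both directions, and the count of lower genes was 7 without NG replicate 3. With the length and GC trend removed STMN2 had -0.02 (edgeR adjusted p = 0.654) and ATF3 lost its call, GAP43 passed at 0.11 (edgeR adjusted p = 0.00247), and 4 genes were higher and 5 lower. ECEL1 had 0.13 in that fit and kept its call.

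**Figure D4:**
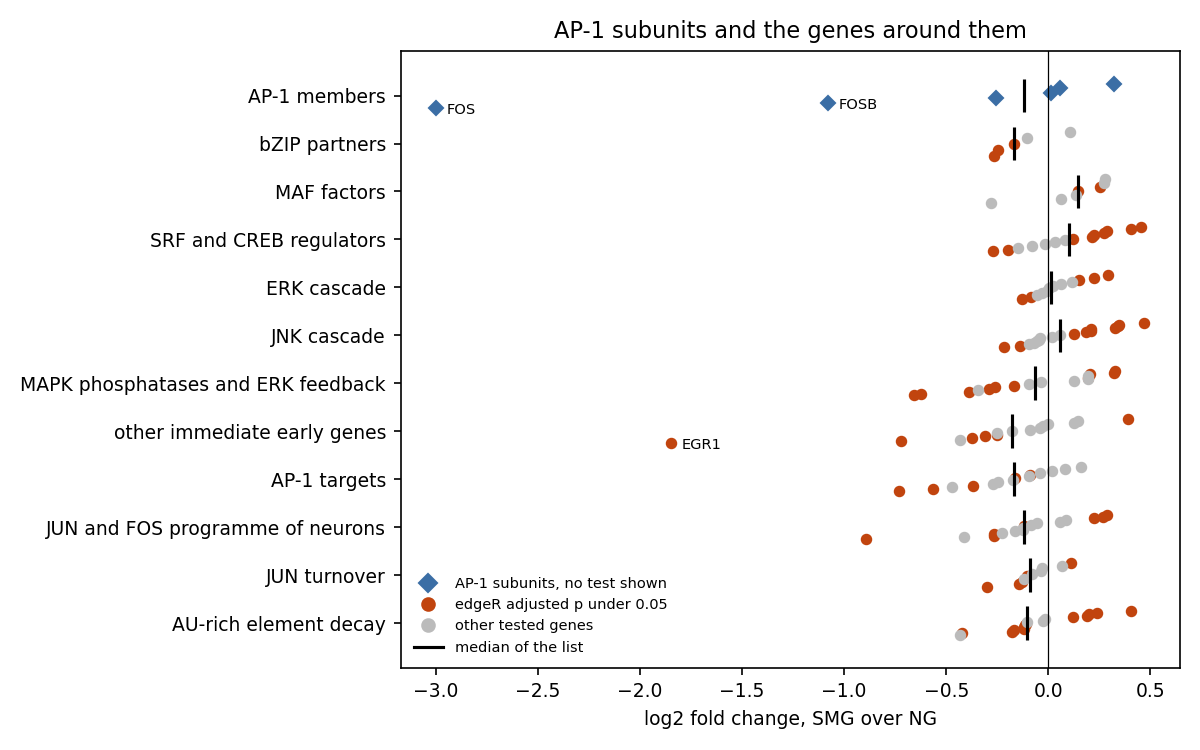
Log2 fold change (SMG over NG) of the genes on each list of AP-1 partners, regulators and targets, cell markers left out, with a point per tested gene and the list median as a line; colour marks genes past the edgeR threshold, and AP-1 genes are shown with no test. EGR1 at -1.85 is the lowest gene of the lists other than the members, and the medians of the lists drawn, other than the members, lie between -0.18 and 0.15.

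Markers of motor neurons were present and mostly higher in SMG: 5 of 7 tested genes were higher, 0 were lower, and their summed level ran from 689 to 717 CPM in SMG and from 581 to 614 CPM in NG. Of all tested genes 17.3% were higher and 18.5% lower. MNX1 and LHX3 lost their calls with the length and GC trend removed, at 0.06 (edgeR adjusted p = 0.278) and 0.09 (edgeR adjusted p = 0.387), while ISL1 at 0.29 and SLC18A3 at 0.50 kept theirs. Of 8 neuron markers 3 were higher and 1, STMN2, was lower. With the length and GC trend removed STMN2 lost its call, while MAP2 at 0.08 and SNAP25 at 0.19 became higher. The neuron markers summed to 8514 to 8683 CPM in SMG and to 8324 to 8923 CPM in NG, ranges that overlap. The progenitor markers also overlapped, at 3551 to 3682 CPM in SMG and 3550 to 3805 CPM in NG, with 0 higher and 3 lower of 8. Oligodendrocyte lineage markers had 0 higher and 1 lower of 4 tested genes, spinal interneuron markers 1 higher and 0 lower of 5, pluripotency markers 0 higher and 1 lower of 2 and muscle markers 1 higher and 0 lower of 2. The interneuron gene EN1 lost its call with the trend removed, as did VIM among the progenitor markers, while OLIG1 and HES5 became lower. The fibroblast and pericyte markers summed to 3.05 to 3.99 CPM in SMG and 4.21 to 4.80 CPM in NG, and those of endothelium to 1.75 to 2.17 CPM in SMG and 2.17 to 2.77 CPM in NG. The microglia and blood markers summed to 0.566 to 0.876 CPM in SMG and 0.366 to 0.677 CPM in NG, and AIF1, SPI1 and HBB had no read in any library. The part of these marker differences in the FOS and JUN values was not tested.

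The genes whose pattern over the 6 libraries came nearest to FOS were found by Euclidean distance between log2 CPM deviations from the NG mean, among genes with a mean of at least 2 CPM. STC1, a secreted glycoprotein hormone, was nearest at a distance of 0.557, with 9.11, 9.34 and 8.71 CPM in SMG and 54.7, 56.6 and 59.2 CPM in NG. ADM, which encodes the vasodilator peptide adrenomedullin, followed at 1.04, and PLOD2, a collagen lysyl hydroxylase, at 1.41. Their log2 fold changes were -2.65, -2.50 and -2.13, each smaller in size than the -2.998 of FOS. The nearest genes to JUN were SBF1, a myotubularin-related pseudophosphatase, at 0.0463, ATP6V0D1, a subunit of the vacuolar proton pump, at 0.0493 and AP1B1, a subunit of the clathrin adaptor complex that shares only its abbreviation with the transcription factor, at 0.0504. The distances for FOS and for JUN are not compared, because few genes changed as much as FOS and many as much as JUN. SBF1 had 240, 245 and 248 CPM in SMG and 204, 207 and 174 CPM in NG, so it shared with JUN the low value in NG replicate 3. The log2 fold changes were 0.32 for SBF1, 0.33 for ATP6V0D1, 0.33 for AP1B1 and 0.32 for JUN. With the length and GC trend removed they were 0.10, 0.24, 0.21 and 0.24, so SBF1 lay further from JUN there. Since these genes were picked by likeness to a member, their differences are descriptions.

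**Figure D5:**
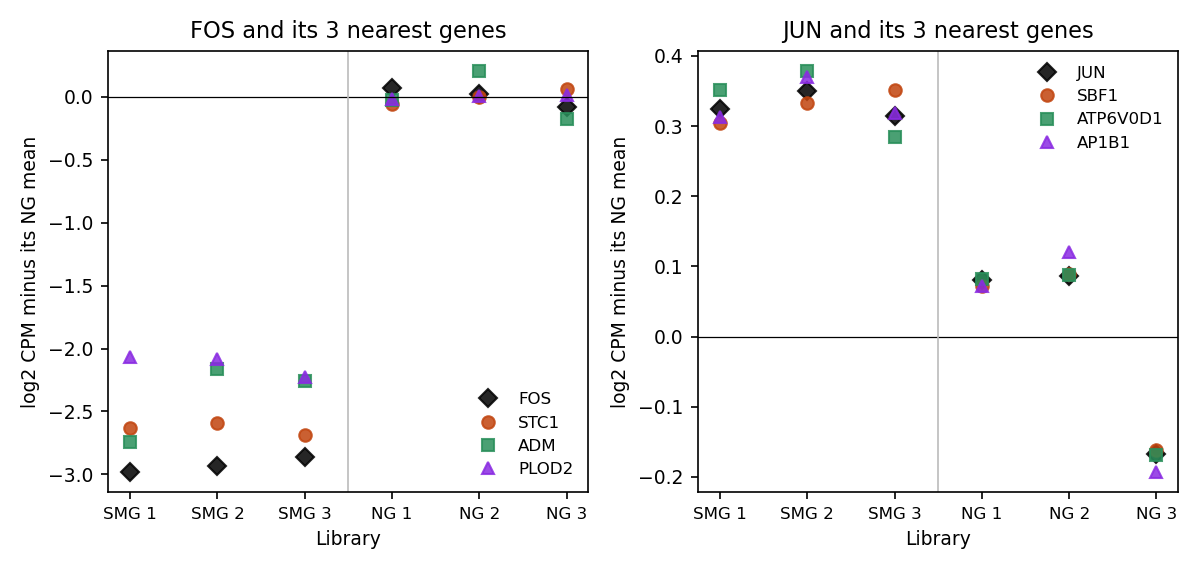
Log2 CPM as deviation from the NG mean in each library, for FOS with its 3 nearest genes and for JUN with its 3 nearest genes, SMG left of NG. STC1, ADM and PLOD2 lie low in all SMG libraries as FOS does, and the points of SBF1, ATP6V0D1 and AP1B1 lie close to those of JUN in every library.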

How the data were processed

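RNA was sequenced from 3 SMG and 3 NG libraries, made with an mRNA library kit per the labels' protocols. The deposited table holds raw counts per Ensembl gene, whole numbers that the authors made. Per the submitters' processing notes, the tools were HISAT2, SAMtools, featureCounts and DESeq2, with hg19 as the build. Versions, annotation, strand and the treatment of multi-mapping reads are not stated there. A symbol was matched to 52338 of 57820 genes. GENCODE 29, on another build, served for names, exon length, GC and overlap alone.

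Groups came from the labels. Genes passing edgeR's filterByExpr (17803) were scaled by TMM and tested with edgeR 4.0.16 (glmQLFit with robust estimation, glmQLFTest, R 4.3.3), with Benjamini-Hochberg adjustment over all genes and a threshold of 0.05. The script was tested on simulated data. At these depths, of 16329907 to 22685870 counts, the biological coefficient of variation was 0.0346. FOSL1 failed the filter. The pool divided TMM-scaled CPM by exon length for all 7 members.

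The members and lists were chosen with earlier results of these data known. Named genes were the members, up to 4 called genes per list with the largest change and a mean of at least 2 CPM, a set of regulators always named, and the 3 genes nearest to FOS and to JUN. Motifs were searched on both strands of RefSeq promoter windows. Alternatives were DESeq2 1.42.0, limma-voom (limma 3.58.1), other scalings and filters, removal of a length and GC trend, a replicate block, other lengths for the pool and leaving out each library. LHX1 and PECAM1 matched no gene and were not analysed here, and some genes that the rule names are not reported here.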

Additional observations from a re-analysis of the deposited data

How the results depend on the processing

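Over the alternatives in which each gene was tested, which for FOSB leave out the filter of 1 CPM, the log2 fold change lay between -3.04 and -2.96 for FOS, -1.28 and -0.76 for FOSB, -0.36 and -0.18 for FOSL2, 0.24 and 0.37 for JUN, and -0.09 and 0.22 for JUNB. JUND had -0.17 with the length and GC trend removed, and -0.17 when a replicate block was added to that fit. Members called were 3 of 6, but 2 with DESeq2, with a filter of 1 CPM or without SMG replicate 1, and 4 with the trend removed. The number of genes called was 4648 with DESeq2, 6333 with a replicate block and 4961 to 6092 when a library was left out, beside 6376 as reported. Same-numbered SMG and NG libraries correlated at -0.06, 0.04 and -0.06 in their deviations, so no pairing by number was visible. These values cannot show that the design was unpaired. With the longest transcript as length, the FOS share was 0.754% in SMG and 6.48% in NG, the JUN share in NG 49.3% and the JUND share in NG 40.6%. With no division by length, FOS was 0.570% in SMG and 5.11% in NG, JUN 71.6% in SMG and 63.7% in NG, and JUND 25.0% in SMG and 27.7% in NG. Of 75 other named genes, 19 lost their call under at least 1 of up to 17 alternatives, 5 gained one and 0 reversed. Depth limits FOSB and FOSL1.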

Other observations

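Genes that act on the JUN protein and on AU-rich mRNAs such as that of FOS were also read. Of 10 genes of JUN turnover 1 was higher and 4 were lower in SMG, with a median log2 fold change of -0.09. That was 50% called, beside 35.8% of all tested genes. USP28, a deubiquitinase that stabilises JUN, averaged 48.7 ± 1.14 CPM in SMG and 59.9 ± 1.97 CPM in NG (SD, n = 3 each), a log2 fold change of -0.30 (edgeR adjusted p = 1.14e-05). The ubiquitin ligases ITCH and COP1, both known to act on JUN, fell by 0.14 and by 0.13 on the log2 scale, DDB1, a subunit of the COP1 ligase complex, by 0.10, and GSK3B, a kinase that marks JUN for removal, was higher at 0.11. FBXW7, the ligase that reads that mark, had -0.04 (edgeR adjusted p = 0.531). The lower count was 2 without SMG replicate 1 or SMG replicate 3. With the length and GC trend removed COP1 lost its call (-0.11, edgeR adjusted p = 0.0548) and the counts were 2 higher and 4 lower.

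Of 16 genes of AU-rich element decay 5 were higher and 7 lower in SMG, with a median of -0.11. That was 75% called, beside 35.8% of all tested genes. ZFP36L2, which removes AU-rich mRNAs, averaged 29.8 ± 1.69 CPM in SMG and 40.0 ± 1.76 CPM in NG (-0.42, edgeR adjusted p = 1.17e-06). ELAVL3, a neuronal protein that stabilises such mRNAs, averaged 305 ± 11.7 CPM in SMG and 231 ± 8.42 CPM in NG (0.40, edgeR adjusted p = 8.08e-10). KHSRP, a decay factor, was higher at 0.24 and ELAVL1, a stabilising protein, at 0.20. ZFP36, the founding decay factor of its family and an immediate early gene, had -0.43 (edgeR adjusted p = 0.259). Members that promote decay and members that oppose it moved in both directions, and with the length and GC trend removed 5 genes were higher and 5 lower.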
